A study of Mus musculus with 6 samples.

Results

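Integrins and the proteins of the focal adhesion plaque were followed across 6 cultured lines of adult mouse spermatogonial stem cells, the cells that sustain sperm production, kept in vitro. The gene set was a list of 30 symbols, fixed by name and not by level: 9 integrin alpha subunits, 6 beta subunits and 15 cytoplasmic adhesion components. All 30 were found among the 41053 gene names of the count tables, and 28 passed the filter on low counts. The lines came from adult cells electroporated with a plasmid carrying a GFP reporter, sorted for GFP and subcloned. Wild-type lines received the plasmid without a guide RNA, and lines labelled Ephb2-KO received it with an sgRNA targeting Ephb2, a receptor tyrosine kinase for ephrins. Each group held 3 lines, each sequenced as 1 library, and the libraries of both groups were numbered 1 to 3. Libraries 1 and 2 of both groups were from passage 20 and library 3 of both groups from passage 18. The labels do not say whether same-numbered lines share a parent culture, so p-values measure only the spread between these libraries.

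Integrins are surface receptors made of 1 alpha and 1 beta subunit, and the pair that forms sets the ligand: fibronectin, laminin, collagen or vitronectin. Talin and kindlin bind the beta subunit's short tail and switch the receptor on, and vinculin, the actinins and tensin tie it to actin filaments. The Ilk, pinch and parvin proteins form a complex that strengthens that link, while paxillin, Bcar1 (p130Cas), zyxin and Vasp pass on signals and steer actin assembly. In the testis, spermatogonial stem cells rest on a laminin-rich basement membrane, and integrin receptors for laminin are long-used surface markers of these cells.

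Total counts ran from 21772404 to 34047758 per library. The targeted gene Ephb2 stood at 21.3, 27.1 and 10.8 CPM (counts divided by the library size, scaled by TMM) in wild-type libraries 1, 2 and 3, and the libraries labelled Ephb2-KO had 37.1, 16.5 and 13.4 CPM. The 2 ranges overlapped, so the transcript level does not check the knockout label, and gene totals cannot show an edit of a few bases. All 12 genes of a spermatogonia marker list were tested and made up 0.167% to 0.379% of counts. A list of 16 fibroblast or stromal markers was also present, at 0.357% to 1.96% of counts, so the libraries hold RNA of genes typical of stromal cells beside germ cell genes. In such bulk RNA, fewer cells of a type and less RNA per cell cannot be told apart. Macrophage or leukocyte markers (5 of 6 found) made up at most 0.0020% of counts and endothelial markers (6 found) at most 0.0015%, and 3 of 4 Leydig cell markers, Cyp17a1, Insl3 and Hsd3b1, had at most 2 counts in any library.

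Promoter sequences are given for 4 members on which the results below turn, chosen after their values were seen. Itga5, Zyx and Vcl differed most between lines numbered 1 and 2 among members above 10 RPKM (CPM per kilobase of exon), and Tns1 had the smallest p for passage. Each is the 250 bases before the RefSeq transcription start (GRCm38.p6), read 5′ to 3′ on the gene's own strand, and none of these windows touches an annotated exon of the deposited tables. Capitals mark matches, on either strand, to the CArG box of serum response factor, to the AP-1 letters TGANTCA, to the TEAD letters CATTCC and to the GC box GGGCGG.
Itga5, chr15:103366792-103367041, minus strand: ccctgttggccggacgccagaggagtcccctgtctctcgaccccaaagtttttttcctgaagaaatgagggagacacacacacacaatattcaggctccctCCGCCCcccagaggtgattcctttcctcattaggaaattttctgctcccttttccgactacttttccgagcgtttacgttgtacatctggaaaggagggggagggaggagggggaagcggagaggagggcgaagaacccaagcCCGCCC
Zyx, chr6:42349578-42349827, plus strand: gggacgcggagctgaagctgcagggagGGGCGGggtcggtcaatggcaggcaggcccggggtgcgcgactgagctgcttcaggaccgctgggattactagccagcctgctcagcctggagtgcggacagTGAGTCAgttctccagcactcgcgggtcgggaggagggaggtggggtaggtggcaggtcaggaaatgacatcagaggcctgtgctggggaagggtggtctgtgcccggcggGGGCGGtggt
Vcl, chr14:20929148-20929397, plus strand: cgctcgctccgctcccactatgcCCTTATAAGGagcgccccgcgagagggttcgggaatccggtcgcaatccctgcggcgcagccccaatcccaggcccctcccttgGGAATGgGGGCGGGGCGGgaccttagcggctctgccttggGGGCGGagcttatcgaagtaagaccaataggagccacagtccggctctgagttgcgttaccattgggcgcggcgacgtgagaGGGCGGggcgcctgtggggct
Tns1, chr1:74124549-74124798, minus strand: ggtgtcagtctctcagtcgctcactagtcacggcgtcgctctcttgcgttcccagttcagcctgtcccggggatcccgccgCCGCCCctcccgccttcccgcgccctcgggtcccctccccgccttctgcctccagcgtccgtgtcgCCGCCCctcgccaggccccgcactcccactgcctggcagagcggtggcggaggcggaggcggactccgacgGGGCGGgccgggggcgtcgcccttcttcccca
The CArG box of Vcl (CCTTATAAGG) ended 217 bases before the start, and 2 of its GC boxes overlap each other. The AP-1 match of Zyx (TGAGTCA) ended 114 bases before the start. Of 24 members with an entry in the RefSeq promoter table, 3 (Vcl, Fermt2 and Itgb6) had a CArG box in at least 1 window, against 1.47% of all 32851 windows. A GC box was found for 14 of the 24, against 32.7% of all windows, an AP-1 match for 2 against 6.75%, and a TEAD match for 2 against 12.6%. Some members have several windows, so shares of genes and of windows are not the same quantity. A match is a string of letters and not a site shown to be bound.

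Within the set, the abundant genes were plaque components, with a few integrin subunits beside them. Levels between genes are compared as RPKM averaged over the 6 libraries. Of the 30 members, 13 were above 10 RPKM, 10 lay between 1 and 10, and 7 were under 1. The order was led by Vasp, an actin-elongating protein, at 76.6 RPKM, followed by the integrin-linked pseudokinase gene Ilk at 61.1, Actn1 at 52.9, Zyx at 40.1 and Actn4 at 39.8. Their ranges over libraries overlapped (52.0 to 104 RPKM for Vasp and 41.3 to 80.5 for Ilk), so the order among them is not fixed by these data.

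**Figure D1:**
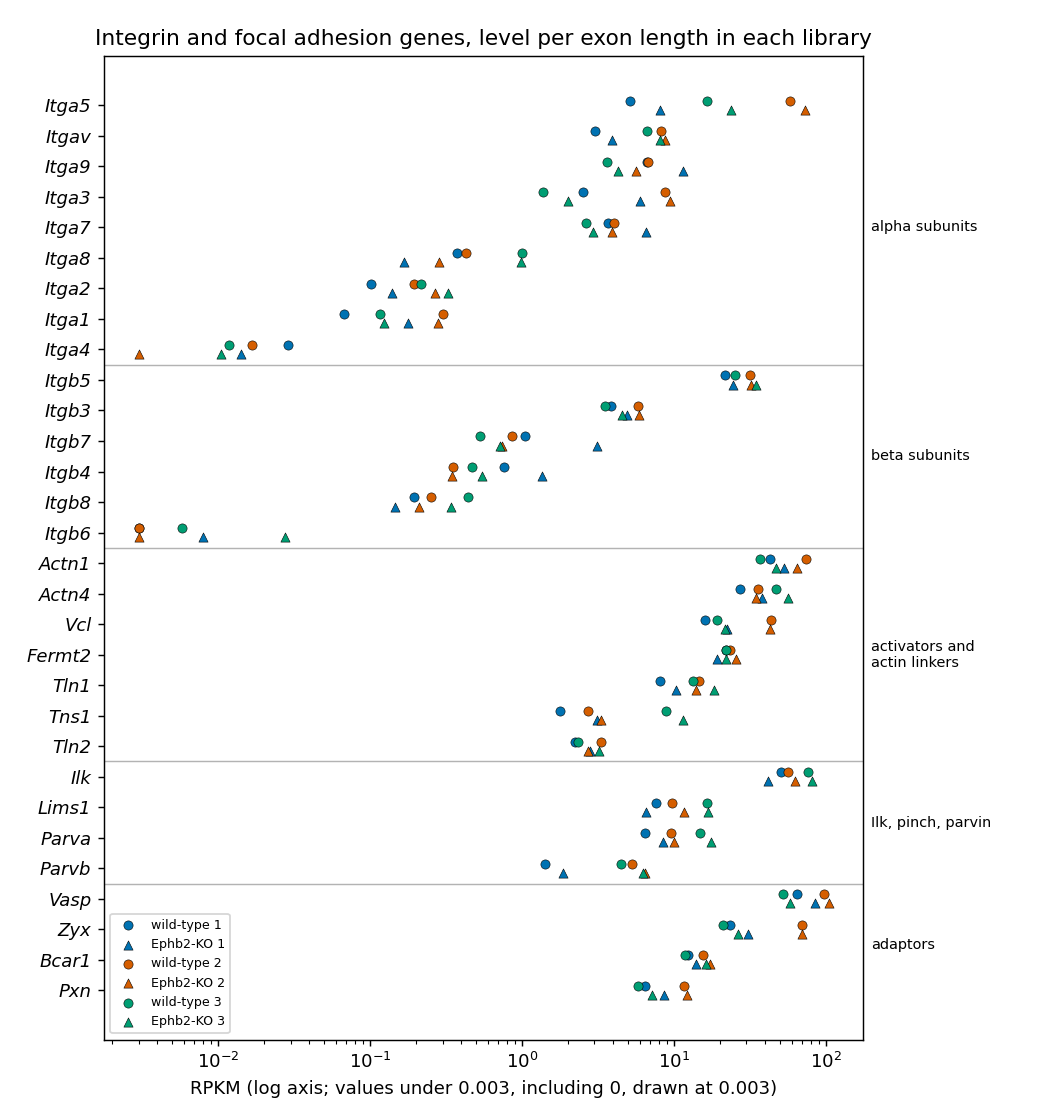
Level of each of the 30 genes in each library in RPKM on a log axis, grouped by role; circles are wild-type and triangles Ephb2-KO libraries, and colour gives the library number. Vasp and Ilk are highest, Itga4 and Itgb6 lowest, and for most genes the colours separate more than the shapes.

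Among alpha subunits, Itga5, the partner of beta 1 in the classical fibronectin receptor, was highest at 30.6 RPKM. Itgav, whose product pairs with several beta subunits to bind vitronectin and fibronectin, followed at 6.44, Itga9 at 6.41, the laminin-binding subunit gene Itga3 at 5.01 and Itga7, another laminin-binding subunit, at 3.96. Itga8 (0.540 RPKM), Itga2 (0.208) and the collagen-binding subunit gene Itga1 (0.178) were low. Itga4 was not tested: it had 15, 6 and 4 counts in wild-type libraries 1, 2 and 3 and 7, 0 and 3 in those labelled Ephb2-KO. Among beta subunits Itgb5, a partner of the alpha v subunit, led at 28.3 RPKM, and Itgb3, another partner of alpha v, stood at 4.77. Itgb7 (1.16), Itgb4 (0.637, the hemidesmosome subunit) and Itgb8 (0.265) were lower. Itgb6, known from epithelia, had at most 4 counts in any library and was not tested. Itgb1, the common partner of most of these alpha subunits, is outside the set and stood at 145 RPKM; it was added after its value was seen.

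The actin-linking genes Actn1, Actn4 and Vcl (27.5 RPKM) were followed by the kindlin gene Fermt2 at 22.3 and the talin gene Tln1 at 13.1 RPKM. The second talin gene, Tln2, stood at 2.76 RPKM and Tns1, a tensin, at 5.21. In the Ilk complex, Lims1 (pinch) and Parva (alpha-parvin) stood at 11.5 and 11.2 RPKM and Parvb (beta-parvin) at 4.31. Bcar1 and Pxn, docking proteins for adhesion kinases, stood at 14.5 and 8.66 RPKM. No member's exons shared a base with an exon of another gene on the same strand in the deposited annotation.

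Library number, rather than group, went with most of the spread of these genes. Of the sum of squares of log2 CPM over the 6 libraries, a median of 85.2% over the 28 tested members lay between library numbers and 8.36% between groups, against medians of 82.6% and 3.92% over all 15263 tested genes. The share between numbers was larger than that between groups for 28 of 28 members, and for 14153 of 15263 genes. Library number has more levels than group, so on average it takes a larger share even where neither matters. It also holds the difference in passage. With the 2 libraries of a number summed, 15 members were highest at number 2, 9 at number 3 and 4 at number 1. Lowest were 17 at number 1, 10 at number 3 and 1 at number 2. No share over all tested genes is given for these counts. These are descriptions of single lines, with 1 library per number and group.

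Itga5 had the widest spread of the tested members, 14.2-fold between its highest and lowest library. The gene (chromosome 15, 103344289 to 103366763, minus strand, GRCm38) begins just below the promoter printed above. Its level was 22.4, 252 and 72.1 CPM in wild-type libraries 1, 2 and 3 and 35.3, 318 and 104 CPM in Ephb2-KO libraries 1, 2 and 3. Libraries numbered 2 were high and those numbered 1 low in both groups, with a ratio of 11.3 in wild-type and 9.01 in Ephb2-KO lines. Zyx, the gene of a LIM protein that gathers at stretched actin fibres, stood at 87.9, 258 and 78.6 CPM in wild-type and 115, 260 and 98.8 CPM in Ephb2-KO libraries. Library 2 was again the highest of each group. Vcl, which reinforces the talin-to-actin link, had 83.6, 227 and 101 CPM against 116, 223 and 113 CPM, with library 2 the highest of each group. Itgav stood at 32.5, 88.3 and 71.3 CPM and at 41.8, 94.5 and 86.6 CPM, and Parvb at 6.24, 23.5 and 19.8 CPM and at 8.26, 28.6 and 27.7 CPM. For both genes libraries 1 were the low ones and libraries 2 and 3 were near each other.

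At least 2-fold higher in library 2 than in library 1 of both groups were 4 of 28 members (Itga5, Itgav, Parvb and Zyx), where 2.85% of all tested genes were. Itgb4 was the 1 member at least 2-fold lower in both, where 3.35% of all tested genes were, with 5.33 and 2.47 CPM in wild-type libraries 1 and 2 and 9.44 and 2.43 CPM in Ephb2-KO libraries 1 and 2. The median log2 ratio of library 2 to library 1 was 0.58 in wild-type and 0.43 in Ephb2-KO lines over members, and -0.02 in each over all tested genes. Vcl missed the 2-fold bound in the Ephb2-KO lines (ratio 1.92).

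At the other end, Fermt2 and Bcar1 were nearly even. Fermt2 stood at 81.9, 87.6 and 82.0 CPM in wild-type and 71.9, 96.1 and 81.8 CPM in Ephb2-KO libraries, a spread of 1.34-fold. Bcar1 ranged from 37.6 to 55.1 CPM, Tln2 from 27.1 to 40.2 CPM and Itgb5 from 73.0 to 116 CPM. Over the 28 tested members, 22 spread by more than 2-fold.

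**Figure D2:**
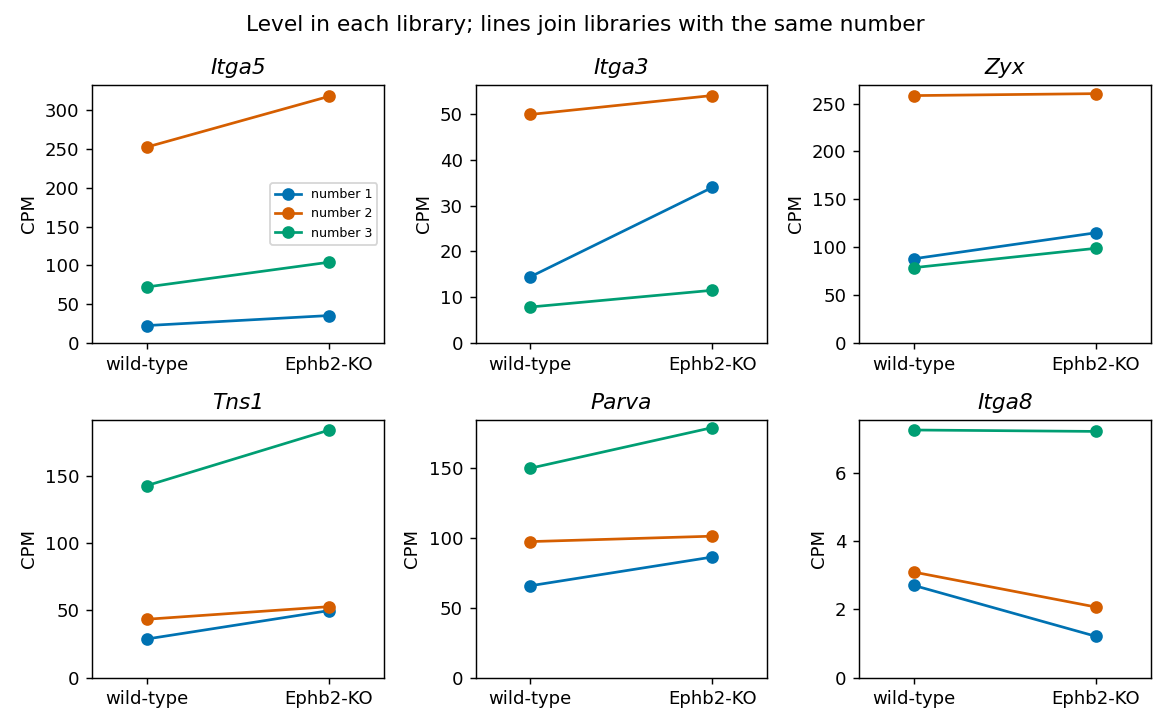
CPM of 6 members in each library, wild-type on the left and Ephb2-KO on the right of each panel, with a line joining libraries of the same number. Itga5, Itga3 and Zyx are highest at number 2, and Tns1, Parva and Itga8 are highest at number 3.

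Compared with wild-type lines, lines labelled Ephb2-KO showed differences in adhesion genes that were mostly small and above 0, and no member passed the test. The comparison asks how the transcriptome differs where the guide against Ephb2 was used. By edgeR's quasi-likelihood test on group alone, 25 members had a positive log2 fold change and 3 a negative one, where 53% of all tested genes were positive. The members' median was 0.23, against 0.01 over all tested genes. The largest was 0.90 for Itgb7 (0.64 in a fit blocked on library number), added after its value was seen. Its log2 differences between same-numbered libraries 1, 2 and 3 were 1.53, -0.21 and 0.43. None of the 28 members was called at a Benjamini-Hochberg adjusted p under 0.05 (0% of all genes were), none had an unadjusted p under 0.05 (0.21% of all genes did), and DESeq2 called none of them either. For 0 of 28 did the CPM ranges of the groups part, where 0.839% of all genes parted with the Ephb2-KO libraries higher and 1.55% with them lower. Single libraries moved the members' median, to 0.03 when wild-type replicate 1 was left out, 0.08 for Ephb2-KO replicate 2 and 0.47 for wild-type replicate 2. The count of members above 0 moved too, to 15, 17 and 24 of 28 in the same order.

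Because same-numbered libraries deviated together, differences are also given within each pair and from an edgeR fit blocked on that number. Within pairs, 13 of 28 members were higher in the Ephb2-KO library of 3 of 3 pairs, where 15.6% of all tested genes were. These were the integrin genes Itga5, Itgav, Itga3, Itga2, Itgb5 and Itgb3, the parvin genes Parva and Parvb, Tns1, and the 4 adaptor genes Vasp, Zyx, Bcar1 and Pxn. Some differences in pair 2 were barely above 0: 0.011 for Zyx, 0.017 for Itgb5 and 0.022 for Itgb3 in log2. Itga2 rested on 16 to 28 counts per library. The count of 13 depended on the scaling, as given below. Itga8 and Itgb8 were lower in 3 of 3 pairs, where 12.4% of all tested genes were. For Itga8 the difference in pair 3 was barely below 0, at -0.0082 in log2. The members' median difference was 0.39 in pair 1, 0.02 in pair 2 and 0.29 in pair 3, against -0.00, 0.00 and 0.06 over all tested genes. Pair 2 gave the lowest of the 3 signed differences for 22 of the 28. The fibroblast or stromal list was also higher in the Ephb2-KO library of each pair. Its summed share of counts was 0.357%, 0.438% and 1.76% in wild-type libraries 1, 2 and 3. In Ephb2-KO libraries 1, 2 and 3 it was 0.537%, 0.540% and 1.96%. Of its 16 markers 8 were higher in 3 of 3 pairs and 0 were lower in 3 of 3, with a blocked median of 0.34. The part of this list in the members' differences was not tested.

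With the block the members' median was 0.25 (24 above 0, 4 below) and 0 passed, where 0.0262% of all genes did. At an unadjusted p under 0.05 there were 4 members, all higher, where 4.38% of all genes were higher at that level, and 0 lower, where 2.09% were. The 4 were Itga5, Tns1, Itga3 and Parvb. Itga5, with 116 ± 121 CPM in wild-type and 152 ± 147 CPM in Ephb2-KO libraries (SD, n = 3), had differences of 0.66, 0.33 and 0.53 in log2 in pairs 1, 2 and 3. Its blocked edgeR fold was 1.42 (95% interval 1.18 to 1.69, unadjusted p = 0.00131, adjusted p = 0.741), while the fit without the block gave an interval of 0.260 to 6.66. Its adjusted p ran from 0.0915 to 1.0 over all alternatives. Tns1 stood at 28.7, 43.3 and 143 CPM in wild-type and at 49.7, 52.7 and 184 CPM in Ephb2-KO libraries, and its blocked fold was 1.39 (1.14 to 1.70, edgeR adjusted p = 0.741). Itga3 stood at 14.4, 49.9 and 7.84 CPM and at 34.0, 54.0 and 11.5 CPM, a blocked fold of 1.55 (1.14 to 2.11, edgeR adjusted p = 0.741). Most of that came from pair 1, where the log2 difference was 1.23, against 0.11 and 0.55 in pairs 2 and 3. Parvb had a blocked fold of 1.31 (1.03 to 1.67, edgeR adjusted p = 0.741) with 0.40, 0.28 and 0.49 in the pairs, the most even of the 4. Over all alternatives the adjusted p of Tns1 and of Itga3 ran from 0.195 to 1.0 and that of Parvb from 0.357 to 1.0.

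**Figure D3:**
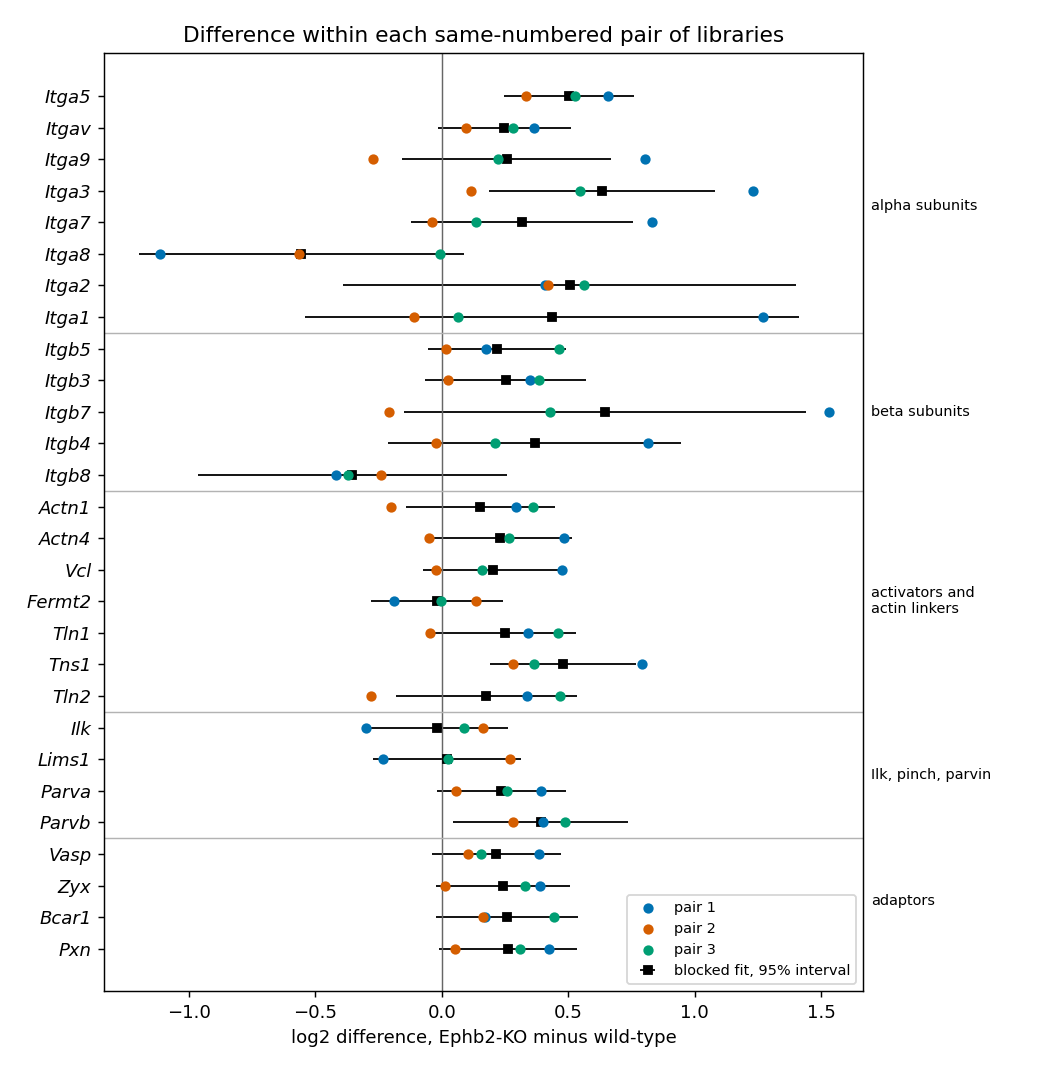
Log2 difference, Ephb2-KO minus wild-type, of the 28 tested genes within pairs 1, 2 and 3 (coloured points) with the estimate and 95% interval of the blocked fit (black squares and bars). The intervals of Itga5, Itga3, Tns1 and Parvb lie above 0, and the points of pair 2 lie mostly to the left of the others.

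By role, the 4 adaptor genes lay above 0 in every pair, with a blocked median of 0.25. In pair 2 the margin was as small as 0.011 in log2 for Zyx and 0.051 for Pxn, and signs this near 0 can turn with the scaling. Vasp stood at 157, 237 and 127 CPM in wild-type and 205, 254 and 141 CPM in Ephb2-KO libraries, and Zyx had blocked values of 0.24 in log2 (SE 0.12). Of 8 tested alpha subunits 7 lay above 0 in the blocked fit, with a median of 0.38. The exception was Itga8, the nephronectin receptor subunit, at 2.71, 3.10 and 7.26 CPM against 1.21, 2.07 and 7.22 CPM (blocked log2 fold change -0.56, SE 0.29). Of 5 tested beta subunits 4 lay above 0, Itgb5 with 0.22 (SE 0.12) and Itgb3 with 0.25 (SE 0.14), and Itgb8 below. Among activators and actin linkers 6 of 7 lay above 0 with a median of 0.20, but only 1 (Tns1) in 3 of 3 pairs, since pair 2 was below 0 for Actn1, Actn4, Vcl, Tln1 and Tln2. In the Ilk complex, Ilk and Lims1 sat at -0.02 (SE 0.13) and 0.02 (SE 0.13), beside 0.24 (SE 0.12) for Parva. For 23 of 28 members the blocked 95% interval, which borrows spread from other genes, lay within a 2-fold change in either direction, and for 10 of 28 in the fit without the block.

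Integrin genes outside the set and their ligands were compared in the same fits. Of 49 further adhesion genes found (among them integrin subunits, kinases and actin cross-linkers), 43 were tested, 30 lay above 0 and 13 below, and 0 passed, with a median of 0.10 without the block and 0.13 with it. Lasp1, a LIM and SH3 adhesion protein, had the smallest p of that list, with a log2 fold change of 0.45 (SE 0.18, edgeR unadjusted p = 0.0392, adjusted p = 1.0 without the block and 0.741 with it). Of 29 tested ligand genes 25 lay above 0, where 53% of all tested genes did, and 0 passed. Of the same 29, 18 were higher in 3 of 3 pairs, where 15.6% of all tested genes were. The ligand genes had a blocked median of 0.27. Tgfb1, Fbn1 (fibrillin) and Col1a1, with the smallest p of the list in the unblocked fit, had log2 fold changes with the block of 0.49 (SE 0.19), 0.61 (SE 0.16) and 0.62 (SE 0.14), edgeR adjusted p = 0.741 for each. The ligand list shares genes with the fibroblast list, so the counts are not separate.

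The libraries of passage 18 differed from those of passage 20 in 8 of the 28 members. Tns1, Itga8, Lims1, Parva and Actn4 rose, and Itga3, Itga9 and Vasp fell, in an edgeR quasi-likelihood fit with group as a term (adjusted p under 0.05, which 25.8% of all tested genes reached, 15.4% higher and 10.4% lower). The members' share, 28.6%, was near that background, 12 of 28 had a positive log2 fold change, where 46.4% of all genes did, and 11 had an unadjusted p under 0.05, where 39.7% did. The median log2 fold change was -0.07, against -0.06 over all tested genes. Passage 18 is held by the libraries numbered 3 alone, so passage and the lines numbered 3 cannot be told apart, and any source shared by those 2 libraries makes these p-values too small. Leaving out single libraries moved the calls over all genes as well as over members, as given below. Without either library numbered 3, passage 18 is held by 1 library alone. The log2 fold change of Tns1 was 1.78 to 2.04 when single libraries were left out. With no filter on low counts all 30 members were tested and 14 were called, 6 higher and 8 lower, where 21.3% of 24749 genes were called, 11.5% higher and 9.82% lower.

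Tns1, whose tensin product anchors actin filaments at integrin tails, had the smallest p of the members. It stood between 28.7 and 52.7 CPM in the 4 passage 20 libraries and at 143 and 184 CPM in the passage 18 libraries, a log2 fold change of 1.91 (SE 0.18, edgeR adjusted p = 0.000656). The gene spans 73910231 to 74124449 on the minus strand of chromosome 1, and its printed promoter held 3 GC boxes and none of the other motifs. Itga8, at 1.21 to 3.10 CPM in passage 20 and 7.22 and 7.26 CPM in passage 18 libraries, rose by a log2 value of 1.75 (SE 0.37, edgeR adjusted p = 0.0152). For both genes the passage 18 range lay above the passage 20 range, as it did for 26.9% of all tested genes. Parts of the Ilk complex were also higher: Parva at 65.8 to 101 CPM against 150 and 179 CPM (0.91, SE 0.18, edgeR adjusted p = 0.0122), and Lims1 at 31.8 to 56.9 against 81.0 and 82.4 CPM (0.92, SE 0.24, adjusted p = 0.0293). Ilk itself stood at 113 to 171 against 208 and 221 CPM and did not pass (0.57, SE 0.19, edgeR adjusted p = 0.0588), and Parvb did not either (0.51, SE 0.60). Actn4, a non-muscle alpha-actinin, had 136 to 190 against 237 and 285 CPM (0.61, SE 0.16, edgeR adjusted p = 0.0284).

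In the opposite direction Itga3 fell by 1.98 on the log2 scale (SE 0.50, edgeR adjusted p = 0.0275), with 14.4 to 54.0 CPM in passage 20 and 7.84 and 11.5 CPM in passage 18 libraries. Itga9, a tenascin-binding subunit, stood at 43.2 to 88.8 against 28.0 and 32.7 CPM and fell by 0.95 (SE 0.29, edgeR adjusted p = 0.0470). Vasp, at 157 to 254 against 127 and 141 CPM, fell by 0.67 (SE 0.20, edgeR adjusted p = 0.0487). The other adaptor genes lay below 0 without passing, Zyx at -1.03 (SE 0.48, edgeR adjusted p = 0.157). Itga5 had -0.84 with an SE of 1.07, and both its highest and its lowest libraries are from passage 20. No beta subunit passed: Itgb5 had 0.11 (SE 0.21) and Itgb3 -0.36 (SE 0.23). For 7 members the passage 18 libraries were both above all 4 others, and for 5 both below, where 26.9% and 26.6% of all tested genes were.

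**Figure D4:**
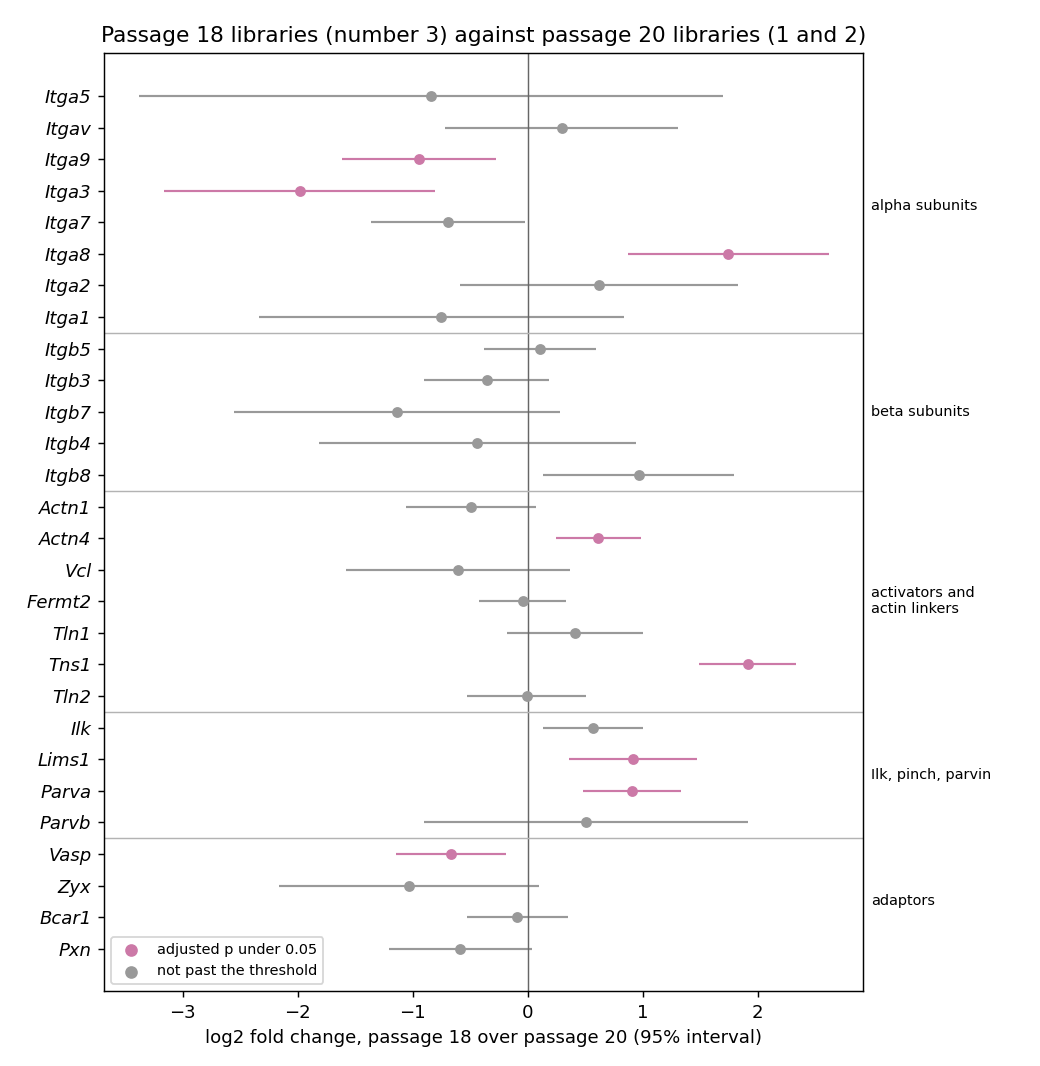
Log2 fold change, passage 18 over passage 20, of the 28 tested genes with 95% intervals from the edgeR fit with group as a term; pink marks an adjusted p under 0.05. Tns1, Itga8, Parva, Lims1 and Actn4 lie to the right of 0 and Itga3, Itga9 and Vasp to the left.

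Cell type markers moved with passage as well. Over all tested genes, 15.4% were called higher and 10.4% lower, the background for the counts below. The fibroblast or stromal list made up 0.357% to 0.540% of counts at passage 20 and 1.76% to 1.96% at passage 18, with 12 of 16 tested markers called higher, 1 lower, and a median log2 fold change of 2.23. Spermatogonia markers went from 0.309% to 0.379% of counts down to 0.167% to 0.196%, with 7 of 12 called lower and none higher. Smooth muscle or peritubular myoid markers made up at most 0.0068% of counts in any library, with 1 of 6 tested (Acta2) called higher. Their part in the members' differences was not tested. Among the further adhesion genes, 10 of 43 were called higher and 5 lower, with the smallest p for Limd1 (1.27, SE 0.16), the collagen-binding subunit gene Itga11 (2.10, SE 0.27) and Itgb1bp1 (1.31, SE 0.22), each by edgeR with group as a term. Of 29 ligand genes 12 were called higher and 3 lower, with a median of 1.13. Lama4, a laminin chain, had 2.22 (SE 0.18), Cyr61 1.73 (SE 0.15) and Vcam1, a ligand of the alpha 4 and alpha 9 integrins, 2.49 (SE 0.23).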

How the data were processed

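RNA was polyadenylated RNA in libraries made with a directional kit, per the labels' protocols. The authors deposited raw read counts per gene name with the summed exon length (another value, in bases) beside them. Per the file headers, reads were counted with featureCounts 1.4.6-p4, strand setting 2, over GENCODE vM3 exons, with no option for pairs, multi-mapping reads or overlapping features, so multi-mapping reads are left out. STAR, FastQC and GRCm38.p3 are named in the submitters' processing notes. The versions of STAR and FastQC are not given in the sources used. A count of 3 equals 0.0803 to 0.147 CPM, a floor for counting error only, and 0 columns held other samples.

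Tests used edgeR 4.0.16 under R 4.3.3: filterByExpr (15263 genes), TMM, robust glmQLFit and glmQLFTest, Benjamini-Hochberg adjustment over all tested genes, threshold 0.05. Standard errors are the log2 fold change over the square root of F; log2 CPM used a prior count of 2. DESeq2 1.42.0, other scalings and filters, and leaving out libraries were alternatives. Passage was tested with group as a term. Scripts were tested on simulated data. Same-numbered libraries correlated in their deviations from group means at 0.596, 0.736 and 0.850, against at most 0.0790 with another number, so the numbers (from the sample titles) pair the libraries by the bound of 0.1. Deviations from a mean cancel within a group, which lowers the correlations with other numbers, so that contrast is partly set in advance. No library repeated another (every comparison of counts gave a chi-square of at least 20.5 times its degrees of freedom). Figures used matplotlib 3.10.9.

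The members and lists were chosen with earlier results of these data known. Values in every library were to be given for members past the threshold by group (with or without the block) or by passage, the 2 highest by RPKM of each role, members with the same sign in 3 of 3 pairs and a blocked unadjusted p under 0.05, and the 6 with the smallest p for passage (16 in all); other members with values (Vcl, Fermt2, Itgb4), the ratios of library 2 to library 1 and the motifs were chosen after values were seen. Of each other list up to 3 genes with the smallest p were named. RefSeq promoters matched 24 of 30 members. Markers of Sertoli and simple epithelial cells were also listed and made up 0.0054% to 0.0089% and 0.0059% to 0.0152% of counts.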

Additional observations from a re-analysis of the deposited data

Results flagged for a closer look

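Itga7, a laminin-binding alpha subunit, had 1 passage 20 library apart from the other 3. Ephb2-KO replicate 1 had 26.5 CPM, while the wild-type libraries of that passage had 14.9 and 16.1 CPM and Ephb2-KO replicate 2 had 15.6 CPM. The gap to the nearest library was 0.865 of the whole range on the log2 scale, above Dixon's 95% critical value for 4 samples. It was the only 1 of 28 members so checked to pass, and chance gives about 5% of such groups. The interaction of group and passage was tested by edgeR for the same 28 members, and 0 passed over all genes, with 0 of the members and 20 of all 15263 genes at an unadjusted p under 0.05.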

How the results depend on the processing

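No member was called between Ephb2-KO and wild-type under any alternative run. Over all genes, calls went from 0 to 4 with the replicate block, 4 with DESeq2 and 19 with DESeq2 and the block, and to 56, 3 and 4 with the block without the pair numbered 1, 2 or 3; leaving out any single library left 0. The members' median then ran from 0.033 to 0.47. Members higher in 3 of 3 pairs numbered 13 with DESeq2 size factors and 10 with raw library totals, both added after seeing the data. The 15.6% of all tested genes given above is for TMM scaling, so these counts have no matching share here. The direction of Ilk turned with the replicate block (-0.017), with DESeq2 and the block (-0.0098) and with the block without pair 2 (-0.11) or 3 (-0.068), Lims1 without pair 2 (-0.10) and Itga9 without pair 1 (-0.030). Leaving out single libraries turned the direction of these: Actn1 (-0.094 to 0.46), Actn4 (-0.020 to 0.45), Ilk (-0.23 to 0.23), Itga3 (-0.081 to 1.57), Itga5 (-0.74 to 1.70), Itga8 (-1.41 to 0.27), Itga9 (-0.21 to 0.60), Itgav (-0.10 to 0.52), Lims1 (-0.31 to 0.44), Parva (-0.15 to 0.59), Parvb (-0.0099 to 0.77), Tns1 (-0.48 to 1.41), Vasp (-0.0031 to 0.50) and Zyx (-0.41 to 0.93). These fits without a block break a pair.

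By passage, 14 of 30 members were called with no filter on low counts, where 21.3% of all genes were, and Vasp was lost with DESeq2 size factors (adjusted p = 0.0607; 0.00533 to 0.356 over its alternatives). Leaving out single libraries gave 284 to 4187 genes and 1 to 8 members called, with a member median of -0.23 to 0.072; without a library numbered 3 the lone one is assumed to vary like the others. Itga5 (-1.23 to 0.33) and Itgb5 (-0.083 to 0.30) turned direction. Tns1 was called under every alternative run (adjusted p at most 0.0411). The cause of these changes was not tested. Depth limits Itga4 and Itgb6, which no fit with the main filter tested.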
